A study of Mus musculus with 6 samples.

Results

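The MHC class I genes followed here in sorted mouse monocytes were 6: the classical heavy chain H2-K1, the non-classical heavy chains H2-Q4, H2-T23, H2-M2 and H2-M3, and the light chain B2m. They were chosen by name, as the array rows that the platform annotation gives exactly 1 gene symbol, and where a gene had several such rows the brightest on average was used. All 6 genes were found, among 22180 genes with such a row and 18458 genes tested. Each of 6 samples was measured on 1 Mouse Gene 2.0 ST array, which gives 1 intensity for each set of short probes. Every mouse had received a transfer of Th9 cells (CD4 T cells of the helper kind) 10 days before spleen and tumor were taken, so no untreated group is part of the comparison. From each tissue, CD11b-positive, CD11c-negative, Ly6C-high inflammatory monocytes were sorted by flow cytometry (spleen n = 3 arrays, tumor n = 3 arrays). The strain entry of the labels reads Th9; mouse strain, H2 haplotype, age and kind of tumor are stated in none of the sources used. Whether each sample is its own mouse is not said in the labels. The p-values therefore reflect only spread among these samples, pooled in part over all genes tested, and that spread may be technical.

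MHC class I molecules show peptides from inside the cell to CD8 T cells and NK cells. A polymorphic heavy chain binds the peptide, and the light chain beta-2 microglobulin, encoded by B2m, holds it in shape. Classical chains such as H2-K1 present to CD8 T cells on nearly all nucleated cells. Non-classical chains are less variable and have narrower tasks: H2-T23 encodes Qa-1, which shows peptides from the leader of other class I chains to receptors of NK cells, and H2-M3 binds peptides that start with N-formyl methionine. H2-Q4 lies in the Q region and H2-M2 in the M region of the H2 complex. Transcription of class I genes is raised by interferons through IRF factors, by NF-kB, and by the transactivator Nlrc5, which acts with RFX, CREB/ATF and NF-Y factors.

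The stretches upstream of a listed start of each of the 6 genes are shown because they hold the letters read by those factors. They are the 200 bases before the transcription start, 5′ to 3′ on the strand of the gene, from RefSeq on build GRCm38.p6. All 6 genes were matched in the RefSeq table by gene identifier. H2-K1 has 2 listed starts there, of which the first was taken. Its stretch lies within the annotated gene, whose outer 5′ end is at 34000619, while the other stretches abut their genes. Distances in H2-K1 are therefore from an inner start. Capitals mark matches, on either strand, to the IRF element TTTCNNTT, the core TGACG of the CRE, the CCAAT box and the NF-kB consensus.
H2-K1, chr17:34000348-34000547, minus strand: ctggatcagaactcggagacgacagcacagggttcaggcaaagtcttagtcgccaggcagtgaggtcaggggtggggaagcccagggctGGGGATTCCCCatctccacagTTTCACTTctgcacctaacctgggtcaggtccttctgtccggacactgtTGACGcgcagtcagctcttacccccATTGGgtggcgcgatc
H2-Q4, chr17:35379417-35379616, plus strand: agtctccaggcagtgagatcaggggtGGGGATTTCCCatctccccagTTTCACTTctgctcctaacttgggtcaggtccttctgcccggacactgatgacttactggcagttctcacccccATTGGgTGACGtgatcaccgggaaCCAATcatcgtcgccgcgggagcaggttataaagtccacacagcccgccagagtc
H2-T23, chr17:36032702-36032901, minus strand: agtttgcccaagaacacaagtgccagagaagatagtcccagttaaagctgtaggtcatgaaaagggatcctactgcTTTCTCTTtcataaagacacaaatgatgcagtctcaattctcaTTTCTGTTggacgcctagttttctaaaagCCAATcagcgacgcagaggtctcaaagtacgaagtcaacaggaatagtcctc
H2-M2, chr17:37483555-37483754, minus strand: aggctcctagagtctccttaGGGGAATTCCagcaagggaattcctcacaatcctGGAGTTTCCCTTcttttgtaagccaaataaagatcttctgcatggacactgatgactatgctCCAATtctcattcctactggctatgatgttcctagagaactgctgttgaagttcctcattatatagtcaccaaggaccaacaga
H2-M3, chr17:37270034-37270233, plus strand: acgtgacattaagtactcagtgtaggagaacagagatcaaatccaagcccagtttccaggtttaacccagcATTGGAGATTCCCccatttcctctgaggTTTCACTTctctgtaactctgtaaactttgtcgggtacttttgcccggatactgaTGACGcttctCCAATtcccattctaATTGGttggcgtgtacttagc
B2m, chr2:122147487-122147686, plus strand: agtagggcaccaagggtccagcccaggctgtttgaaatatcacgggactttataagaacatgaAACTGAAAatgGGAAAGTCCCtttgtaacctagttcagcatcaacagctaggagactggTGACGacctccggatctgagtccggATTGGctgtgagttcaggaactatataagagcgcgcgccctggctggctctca

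The IRF element stood in 6 of the 6 stretches, against 17.2% of 27025 promoters of the same length, 1 per gene. The CCAAT box stood in 6 of 6 (30.0% of promoters), the CRE core in 4 (15.8%) and the NF-kB consensus in 5 (3.05%). In H2-K1 and H2-Q4 the NF-kB match lay just before the IRF element, which read TTTCACTT in both and again in H2-M3. That element began 90 bases before the start in H2-K1, 153 in H2-Q4 and 101 in H2-M3. H2-T23 had no NF-kB match and 2 IRF elements, at 124 and 81 bases, and B2m had its IRF element on the other strand, 137 bases before the start. In H2-M2 the second NF-kB match overlaps the IRF element, in H2-M3 the NF-kB match overlaps a CCAAT match, and in H2-K1 and H2-Q4 a pair of NF-kB matches overlap each other. The heavy chain genes are copies of one family, so their stretches are related, and a match says nothing about binding in these cells.

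All levels below are on the log2(intensity + 1) scale, with group means ± SD (n = 3). Each difference is the tumor mean less the spleen mean, ± SE. A gene was called at a limma adjusted p (Benjamini-Hochberg over all 18458 genes) under 0.05. The median level was 4.50 to 4.51 for arrays with the number 1 or 2, and 4.73 and 4.76 for spleen 3 and tumor 3. Any pair of the arrays numbered 1 and 2 had exactly equal values on 5.92% to 8.55% of the 41345 probe sets. The arrays numbered 3 had 0 equal values with those and 12 with each other, so differences within each number are given for each gene. Of the genes behind the sort, Itgax (CD11c), which it selected against, had levels of 11.16 ± 0.12 in spleen and 10.31 ± 0.17 in tumor, and Ly6c1 lay near background in both groups. The genes of the sort and of monocytes differed in both directions: Ly6c2 rose by 1.48 and Fcgr1 by 3.56, while Itgax fell by 0.85, Itgam by 0.85, Ccr2 by 0.93 and Csf1r by 0.57 (limma adjusted p = 0.0186, 4.6e-06, 0.00987, 0.015, 0.00516 and 0.0428). Adgre1 differed by -0.57 and was not called (limma adjusted p = 0.121). It was called lower with the replicate block (0.00258) and among the arrays numbered 1 and 2 (0.0162). Without 1 array the call was lost for Ly6c2 (spleen 1 or 2), Itgax (tumor 1), Itgam (spleen 2, tumor 1 or 2) and Csf1r (any but tumor 3), with adjusted p up to 0.0713, 0.0594, 0.0802 and 0.173. Of 52 markers in 10 lists for other cell types 42 were tested. The 4 that rose were Klrk1, Zbtb46, Ccr7 and Kdr, and Cd3g fell. Of the pair of dendritic cell genes among them, Ccr7 lost its call without any 1 array (adjusted p up to 0.158). Zbtb46 lost it without spleen 1 or 2 or tumor 2 (up to 0.0627). Ccr7 was bright in both groups, at 11.56 ± 0.09 in spleen and 12.1 ± 0.03 in tumor. Ly6c2 stood at 6.81 ± 0.58 and 8.29 ± 0.40, and Ccr2 at 6.86 ± 0.09 and 5.93 ± 0.15. Flt3 stood at 6.89 and 6.99, Xcr1 at 4.59 and 4.30 and Siglech at 4.52 and 4.62. Which cells gave the Ccr7 signal was not tested. With the replicate block Dcn also rose (adjusted p = 0.0262) and Col1a1, Cdh1 and S100a8 also fell (0.0065, 0.0159 and 0.0207). Over all 18458 genes tested that block called 2153 higher and 3195 lower. Summed log2 levels were 33.7 to 35.5 in spleen and 35.1 to 36.6 in tumor for 5 dendritic cell genes, 17.5 to 19.8 and 19.8 to 22.0 for 4 NK cell genes, 20.8 to 21.6 and 23.4 to 24.1 for 4 endothelial genes, and 29.9 to 32.6 and 27.4 to 30.5 for 6 T cell genes. In the dendritic cell list Zbtb46 differed by 0.89 and Ccr7 by 0.54, and Flt3, Xcr1 and Siglech, uncalled, by 0.09, -0.29 and 0.10. The NK cell, endothelial and T cell sums were moved mainly by single genes. In the NK cell list Klrk1 differed by 1.73, and Ncr1, Eomes and Gzma, uncalled, by -0.07, 0.17 and 0.29. In the endothelial list Kdr differed by 2.88, and Pecam1, Cdh5 and Tek, uncalled, by -0.20, -0.07 and -0.11. In the T cell list Cd3g differed by -1.36 and the others by -0.36 to 0.06. The uncalled markers were named after their values were seen. No marker was at 0. All nucleated cells carry class I, and the part of other cells in the differences below was not tested. In such bulk samples more RNA per cell and more cells of a type cannot be told apart.

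Among the 6 genes 2 rose on the tumor arrays, H2-Q4 and H2-T23, and 0 fell. Of all genes tested 5.73% rose, and with the replicate number as a block 2153 of 18458 rose and 3195 fell. The other 4 genes were not called, and 1 of them, H2-K1, is the classical chain. The 6 differences had a median of 0.37, against -0.05 over all genes tested. In 5 of the 6 genes the 3 tumor values lay above the 3 spleen values, which held in either direction for 25.4% of the genes tested. Probe sets of class I genes may read each other's transcripts where the copies are alike, so a value may hold signal from related chains. This was not tested.

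**Figure D1:**
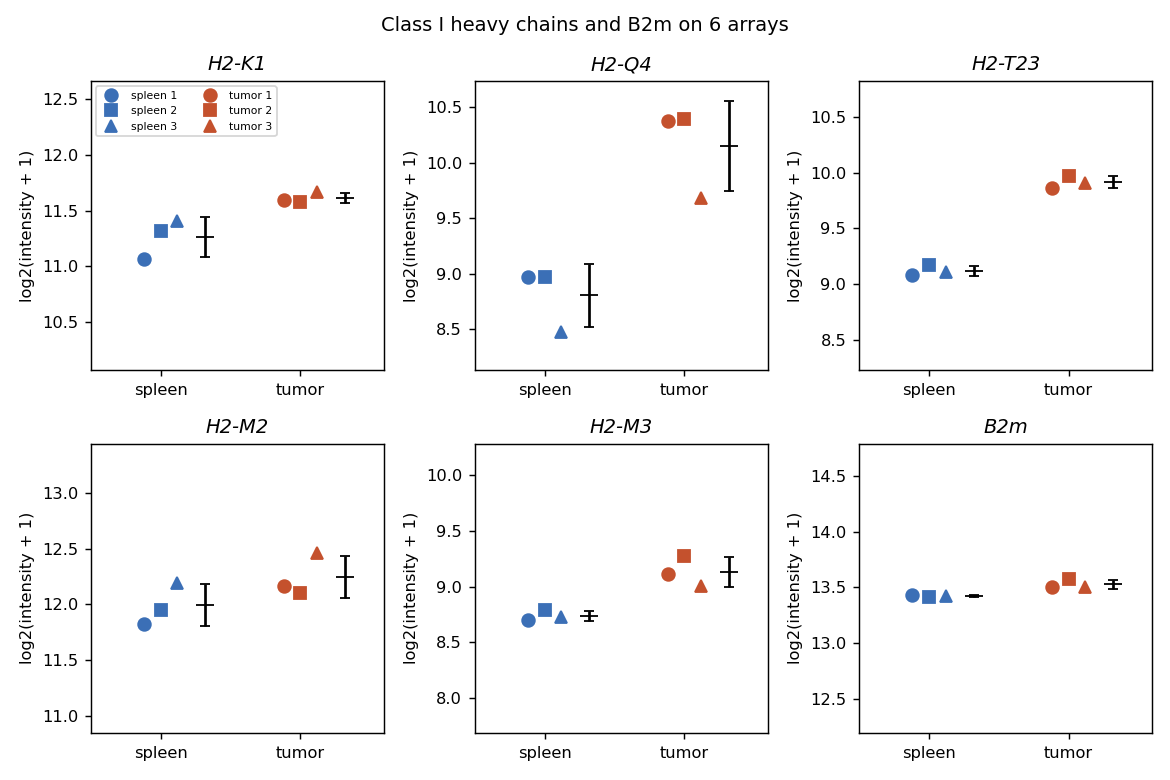
Level of each gene on each array, as log2(intensity + 1), with spleen arrays in blue, tumor arrays in red, marker shape by replicate number, and black bars for mean ± SD (n = 3); every panel spans the same range. The tumor points of H2-Q4 and H2-T23 stand clear of the spleen points, those of H2-K1, H2-M3 and B2m lie above them by less, and those of H2-M2 overlap.

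H2-K1, the classical heavy chain, is one of the main molecules that show peptide to CD8 T cells. Its level was 11.06, 11.32 and 11.41 on spleen arrays 1 to 3 and 11.59, 11.58 and 11.67 on tumor arrays 1 to 3 (Entrez gene 14972, probe set 17343710). The tumor values lay above the spleen values without overlap, and the spleen values were the more spread (SD 0.18 against 0.05). The difference was 0.35 ± 0.15, or 1.27-fold, with a 95% interval of 0.01 to 0.69 that is not adjusted for the number of genes (limma adjusted p = 0.221). With the replicate number as a block H2-K1 was called (adjusted p = 0.0361). Within the numbers 1, 2 and 3 the differences were 0.53, 0.26 and 0.26.

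H2-Q4, a non-classical chain of the Q region, had the largest difference of the 6. Its level was 8.97, 8.97 and 8.48 on the spleen arrays and 10.37, 10.39 and 9.68 on the tumor arrays (Entrez gene 15015, probe set 17337100). The arrays numbered 3 were the lowest of their group in both tissues, and the values of spleen 1 and spleen 2 were exactly equal. The rise was 1.34 ± 0.24, or 2.53-fold (limma adjusted p = 0.00858), and within the numbers it was 1.40, 1.42 and 1.20. Without tumor 1 the difference was 1.23 and missed the threshold (adjusted p = 0.0503). A second probe set of H2-Q4 was dimmer, at 5.38 in spleen and 5.63 in tumor, and differed by 0.25, and the mean of the 2 probe sets rose by 0.79 (adjusted p = 0.0208).

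H2-T23, which encodes Qa-1, rose by nearly the same amount in every pair of equally numbered arrays. Its level was 9.08, 9.17 and 9.11 in spleen and 9.86, 9.97 and 9.91 in tumor (Entrez gene 15040, probe set 17344568). The groups did not overlap, and the SD was 0.05 in each. The rise was 0.80 ± 0.13, or 1.74-fold (limma adjusted p = 0.00656), and within the numbers it was 0.79, 0.80 and 0.80. The call held without each array in turn, with adjusted p up to 0.0413.

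H2-M3, the chain that binds formylated peptides, had levels of 8.70, 8.79 and 8.73 in spleen and 9.12, 9.27 and 9.01 in tumor (Entrez gene 14991, probe set 17337557). The groups did not overlap, with the tumor values the more spread (SD 0.13 against 0.05). The difference was 0.39 ± 0.14, or 1.31-fold, with a 95% interval of 0.07 to 0.72 (limma adjusted p = 0.139). With the replicate number as a block H2-M3 was called (adjusted p = 0.0181), and within the numbers the differences were 0.42, 0.49 and 0.27.

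H2-M2, a non-classical chain of the M region, had levels of 11.83, 11.95 and 12.20 in spleen and 12.17, 12.10 and 12.46 in tumor (Entrez gene 14990, probe set 17344873). The highest spleen value exceeded 2 of the tumor values, so the groups overlapped, and the arrays numbered 3 were the highest of their group. The difference was 0.25 ± 0.17, with a 95% interval of -0.13 to 0.64 (limma adjusted p = 0.498). Within the numbers it was 0.34, 0.15 and 0.27.

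B2m, the light chain of class I molecules, had levels of 13.43, 13.41 and 13.43 in spleen and 13.50, 13.57 and 13.51 in tumor (Entrez gene 12010, probe set 17375373). Every tumor value lay above every spleen value, though by little. The difference was 0.11 ± 0.13, or 1.08-fold, with a 95% interval of -0.19 to 0.41 (limma adjusted p = 0.795), and within the numbers it was 0.08, 0.16 and 0.08. The SD was 0.01 in spleen and 0.04 in tumor, so this SE and interval rest mostly on the spread of other genes.

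B2m had the highest mean level of all 18458 genes tested. On tumor 2 its intensity of 12190 was the highest of all 41345 probe sets, and on the other arrays it ranked between 2 and 9. It lay at most 0.26 below the brightest probe set of its array. H2-M2 ranked between 112 and 186 and H2-K1 between 250 and 427, while the best rank of the other 3 chains on any array was 887. Differences over all genes were small at this end of the scale. Of the 8 genes with a mean level of 13 or more, limma called 0, with 0 at an unadjusted p under 0.05 and 0 with the replicate block. Their differences ran from -0.15 to 0.11, the highest being that of B2m. The SE of B2m was 0.13, or 0.09 with the replicate block. Differences this small could hardly be called by either fit, so the counts of 0 add nothing to their size. Of the 56 genes between 12 and 13, where H2-M2 lies, 2 rose and 2 fell, with a median size of difference of 0.16. Between 10 and 12, where H2-K1 lies, 16.3% of 679 genes rose, with a median size of 0.35. Between 8 and 10, where H2-Q4, H2-T23 and H2-M3 lie, 14.8% of 3000 genes rose, with a median size of 0.36. Flags for saturated spots were not used here, and whether saturation narrows the differences of B2m and H2-M2 was not tested.

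**Figure D2:**
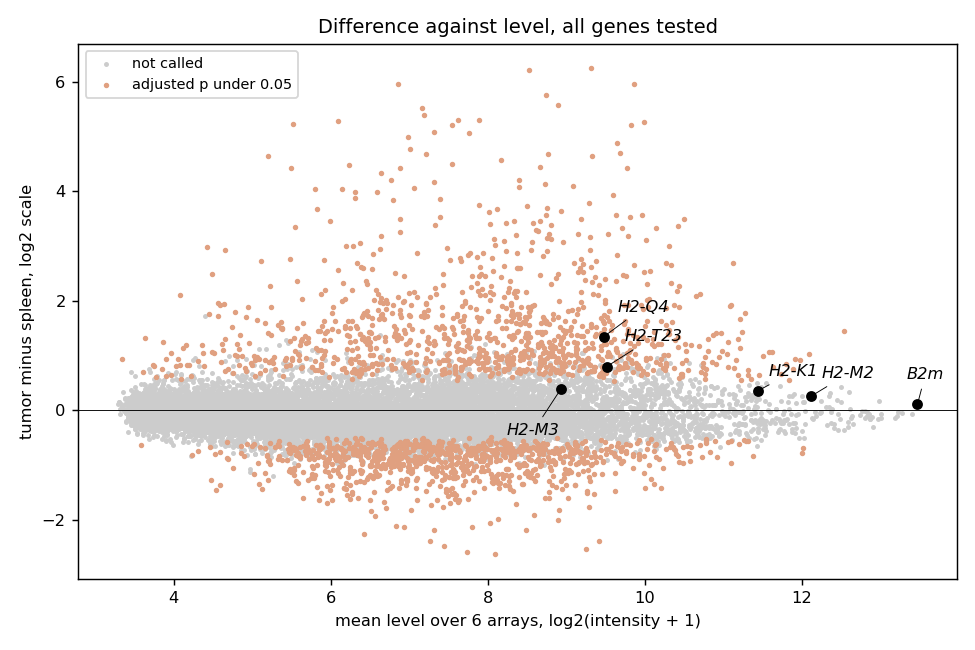
Difference, tumor minus spleen, against mean level over the 6 arrays, both on the log2(intensity + 1) scale, for the 18458 genes tested, with called genes in orange and the 6 class I genes in black. The cloud narrows at the right, where B2m is the last point. The 8 genes at a level of 13 or more differed by -0.15 to 0.11, which this fit could hardly call, and none was called.

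The non-classical chains and B2m were set against the classical H2-K1 by taking the log2 ratio to H2-K1 on each array, of which only the change between groups can be read. For H2-Q4 the ratio was -2.09, -2.35 and -2.93 in spleen and -1.22, -1.19 and -1.99 in tumor, so all tumor values lay above the spleen values. The change was 0.99 ± 0.26 (limma adjusted p = 0.0108), and with the mean of its 2 probe sets it was 0.44 and missed the threshold (adjusted p = 0.0509). For H2-T23 the ratio was -1.99, -2.15 and -2.30 in spleen and -1.73, -1.61 and -1.76 in tumor, again without overlap. The change was 0.45 ± 0.17 (limma adjusted p = 0.0484). That call was lost without any 1 array except tumor 3 (adjusted p up to 0.152), among the arrays numbered 1 and 2 alone (0.0613) and with quantile normalization (0.0855). With the replicate block the adjusted p was 1.5e-05 for H2-Q4 and 0.0097 for H2-T23.

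The other genes could not be told from H2-K1 in their change. H2-M3 changed by 0.04 ± 0.17 relative to it (95% interval -0.33 to 0.42, limma adjusted p = 0.827) and H2-M2 by -0.10 ± 0.16 (-0.45 to 0.26, adjusted p = 0.609). B2m changed by -0.24 ± 0.17 (-0.61 to 0.12, adjusted p = 0.228), with all tumor ratios below the spleen ratios. In this fit 39.2% of all genes were called in either direction, and every ratio shares the values of H2-K1 and so its error. A two-sided exact permutation test of 3 against 3 arrays gave p = 0.1, the smallest it can give, for H2-Q4, H2-T23 and B2m, and 0.4 and 0.7 for H2-M2 and H2-M3, or 0.167, 0.5 and 0.7 adjusted over the 5 pairs.

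**Figure D3:**
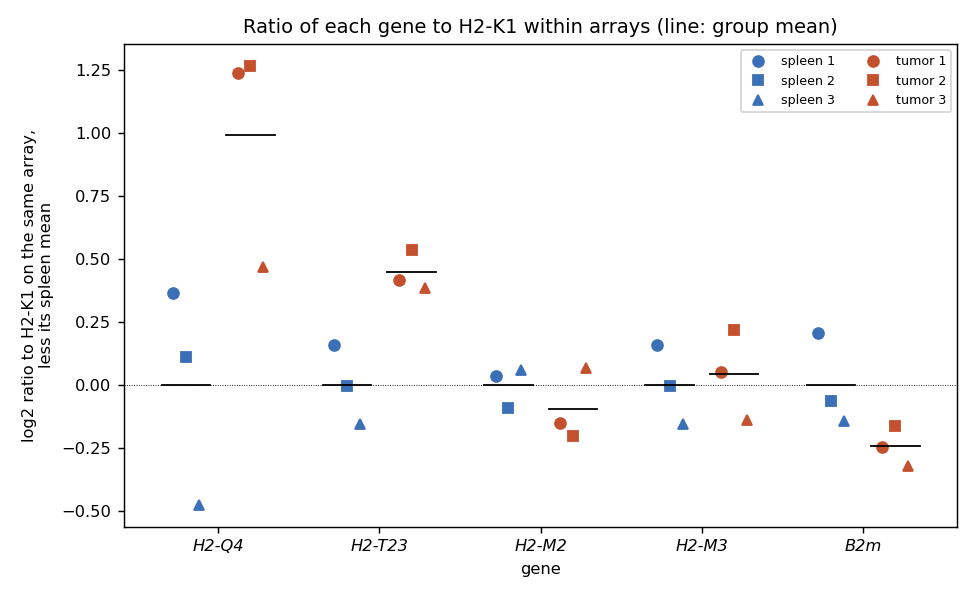
Log2 ratio of each gene to H2-K1 on the same array, less the spleen mean of that ratio, with spleen arrays in blue, tumor arrays in red, marker shape by replicate number and lines for group means (n = 3). The ratio of H2-Q4 changed by 0.99 and that of H2-T23 by 0.45, while the points of H2-M2 and H2-M3 overlap between groups.

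Other class I heavy chain genes were looked up by symbol. Of 16 such genes with a row of their own 9 were tested, of which 3 rose, 0 fell and 6 were not called. At an unadjusted p under 0.05 0 fell. With the replicate block 4 rose and 0 fell, where 2153 of all 18458 genes rose and 3195 fell. H2-T24 had levels of 6.63, 6.85 and 7.26 in spleen and 8.81, 8.81 and 9.45 in tumor, a rise of 2.11 ± 0.23 (limma adjusted p = 7.5e-04). H2-T10 rose by 1.88 ± 0.19 (adjusted p = 5.0e-04), from 5.09 ± 0.31 to 6.97 ± 0.19, and H2-Q5 by 1.73 ± 0.23 (adjusted p = 0.00189), from 7.66 ± 0.35 to 9.39 ± 0.30. These 3 genes of the T and Q regions had larger differences than any of the 6 genes above, and kept their call without each array in turn. A second probe set of H2-Q5 differed by 0.64. H2-Q10 differed by 0.71 ± 0.21 (adjusted p = 0.0778, and 0.0163 with the replicate block). Its second probe set differed by 0.73 and was called in a fit over all probe sets (adjusted p = 0.0313), where the first was not (0.138). The tested genes of the M region and H2-Q1 and H2-Bl stood between -0.17 and 0.46, and 7 genes of the M region failed the filter on low values.

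**Figure D4:**
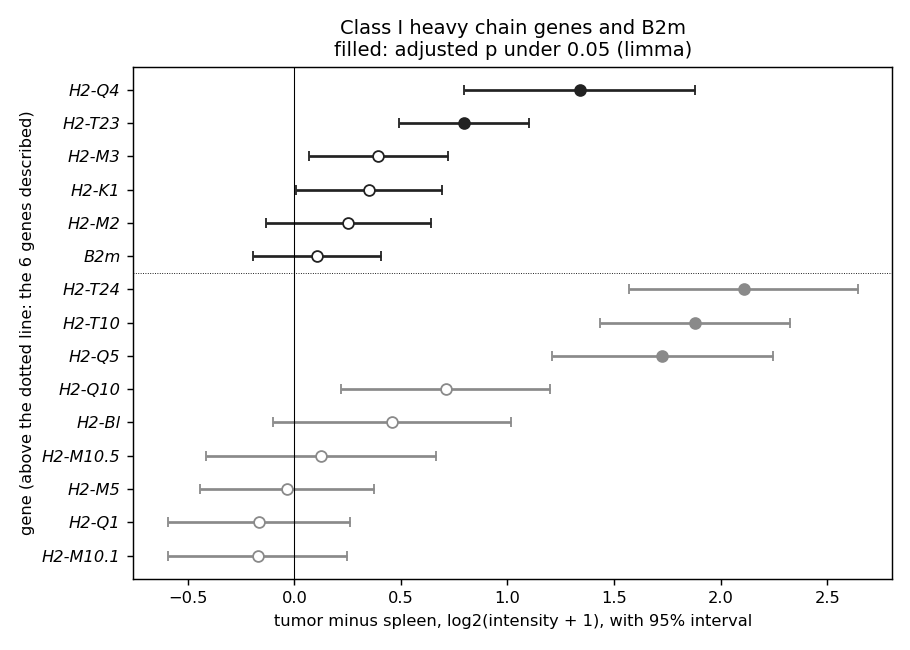
Difference, tumor minus spleen, on the log2(intensity + 1) scale with its 95% interval (not adjusted for the number of genes) for the 6 class I genes (black, top) and the 9 other tested heavy chain genes (grey); filled points have a limma adjusted p under 0.05. H2-T24, H2-T10 and H2-Q5 reach 2.11, 1.88 and 1.73, beyond the 1.34 of H2-Q4.

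Of 13 genes for peptide supply and loading 7 rose and 0 fell, with a median difference of 0.69, where 5.73% of all genes rose. With the replicate block 9 rose and 1 fell, which added Psmb8, Erap1 and Calr. That block called 2153 of all 18458 genes higher and 3195 lower. Of the genes with a negative difference only Calr had an unadjusted p under 0.05. The tapasin relative Tapbpl, which edits the peptides class I carries, rose from 8.23 ± 0.11 to 10.08 ± 0.04, by 1.85 ± 0.14 (limma adjusted p = 7.3e-05). The immunoproteasome subunits Psmb9 and Psmb10 rose by 1.53 ± 0.14 and 1.46 ± 0.16 (adjusted p = 2.4e-04 and 5.7e-04). The chaperones of the endoplasmic reticulum that fold heavy chains had values of -0.41 ± 0.14 for Calr, -0.18 ± 0.16 for Canx and -0.06 ± 0.17 for Pdia3 (adjusted p = 0.113, 0.669 and 0.942), named after their values were seen. Psme1 was lost without spleen 1 or 2 or tumor 1 or 2 (adjusted p up to 0.0821) and Tapbp without spleen 1 or 2 or tumor 1 (up to 0.0759) and with the mean of its probe sets.

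Among the regulators of class I transcription, Nlrc5, Irf1 and Irf2 rose and 0 fell, of 11 tested. With the replicate block 5 rose and 1 fell, which added Rfx5, Nfyb and Rfxank. That block called 2153 of all 18458 genes higher and 3195 lower. Of the negative differences only that of Rfxank had an unadjusted p under 0.05. The transactivator Nlrc5 rose from 6.33 ± 0.23 to 9.16 ± 0.22, by 2.84 ± 0.18 (limma adjusted p = 3.4e-05). Irf1, an interferon-induced activator that binds IRF elements, rose by 1.80 ± 0.15 (adjusted p = 1.4e-04), and Irf2, a related factor, by 1.18 ± 0.17 (adjusted p = 0.00317). Of the factors that act with Nlrc5 at the promoter, Rfx5 differed by 0.94 ± 0.26, Rfxap by -0.33 ± 0.28, Rfxank by -0.53 ± 0.18 and Creb1 by 0.13 ± 0.19 (adjusted p = 0.0563, 0.652, 0.12 and 0.831). The NF-Y subunits Nfya, Nfyb and Nfyc stood at 0.08, 0.43 and -0.24 and the NF-kB subunit Rela at 0.28. None of them was called in the main fit. With the replicate block Nfyb was called (limma adjusted p = 0.0186), and Nfya, Nfyc and Rela were not (0.61, 0.0828 and 0.0713). These 8 uncalled genes were named after their values were seen. Nfkb1 is not analysed here.

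Molecules that resemble class I went both ways, with 2 that rose and 3 that fell of 9 tested, where 4.85% of all genes fell. With the replicate block 4 rose and 3 fell, since Cd1d1 and Ulbp1 were then called higher (adjusted p = 0.0124 and 0.00989). That block called 2153 of all 18458 genes higher and 3195 lower. Procr, the class I-like receptor for protein C, which does not pair with B2m, rose from 8.29 ± 0.0036 to 10.69 ± 0.27, by 2.40 ± 0.17 (limma adjusted p = 5.5e-05). Cd1d2, a lipid-presenting chain, was the other called rise (adjusted p = 0.00141), with levels of 3.30, 3.45 and 3.95 in spleen and 5.02, 5.36 and 5.58 in tumor. Its values on spleen 1 and 2 were under the 25th percentile of those arrays, so it passed the filter mainly through the tumor arrays and the size of its rise, 1.76, rests on spleen values near background. The called falls were 3 in number. Mr1, which shows vitamin B metabolites to T cells, fell by 0.98 ± 0.19 (adjusted p = 0.0124), Fcgrt, the heavy chain of the neonatal Fc receptor, by 0.82 ± 0.18 (adjusted p = 0.0203), and Hfe, a regulator of iron uptake, by 0.77 ± 0.20 (adjusted p = 0.0425). Mr1 lost its call without tumor 1 or 2 (adjusted p up to 0.0682), Fcgrt without spleen 2 or tumor 1 (up to 0.0956) and among the arrays numbered 1 and 2 (0.0616), and Hfe without any 1 array (up to 0.174). The list had between 2 and 4 calls without 1 array, with 3 without spleen 2 or tumor 2 and 2 without tumor 1. A list of myeloid receptors had 3 tested genes, and whether all 3 bind class I is not shown here. Of these 0 were called, with 0 at an unadjusted p under 0.05 and 0 with the replicate block. Lilrb4a and Lilra5 stood at 0.17 ± 0.14 and -0.44 ± 0.28 (limma adjusted p = 0.647 and 0.473). Pirb, named after its value was seen, stood at -0.06 ± 0.15 (adjusted p = 0.923).

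**Figure D5:**
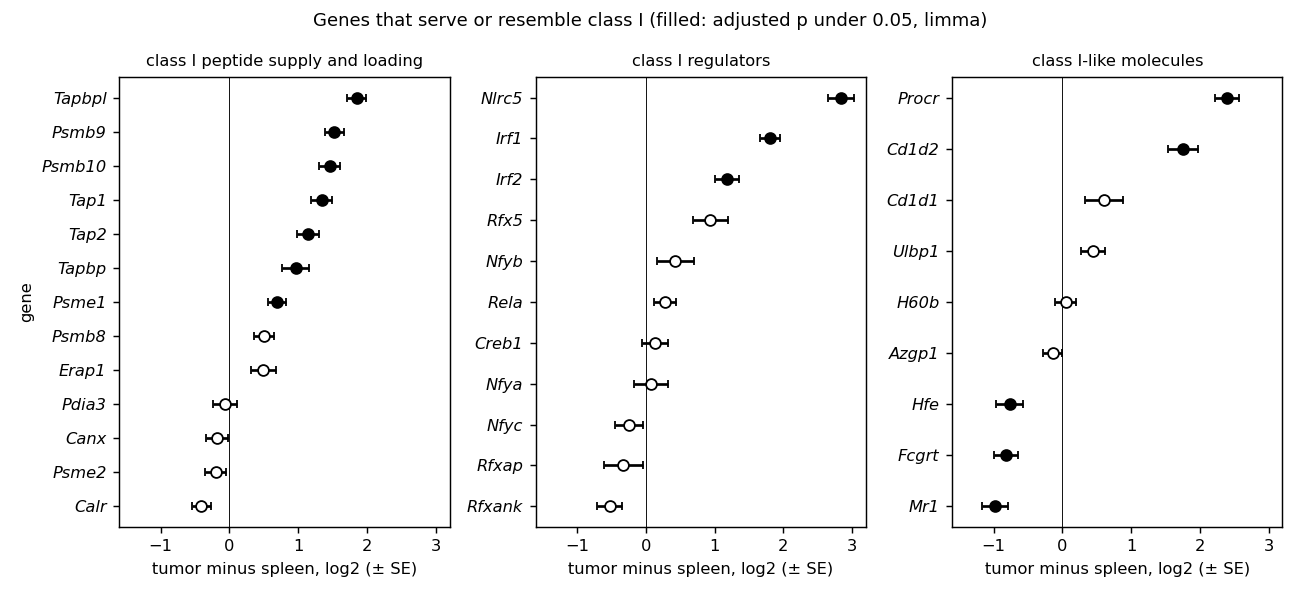
Difference, tumor minus spleen, on the log2(intensity + 1) scale with its SE for the genes tested of 3 lists (13, 11 and 9 genes); filled points have a limma adjusted p under 0.05. Tapbpl, Nlrc5 and Procr lead their lists at 1.85, 2.84 and 2.40, and Mr1, Fcgrt and Hfe are the called falls.

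The genes whose pattern over the 6 arrays was most like each class I gene were found by the root mean square difference of their log2 levels, each centred on its own mean. For H2-T23 these were Slc7a2 (0.04), D17H6S56E-5 (0.04) and Nr4a3 (0.04), with 33 genes within 0.1. For H2-K1 they were Tspan3 (0.02), Llgl1 (0.05) and Msl2 (0.05), with 102 genes within 0.1, and for H2-M3 Olfr1303 (0.05), Adssl1 (0.06) and Rab5if (0.06), with 35. H2-Q4 had no gene within 0.1, and Stard3 (0.13), Txk (0.13) and Dll1 (0.15) were nearest. H2-M2 was nearest to Ptprj, Dgkh and Ankrd16 (0.02 to 0.03, with 443 genes within 0.1) and B2m to Sox1, Pgk1 and Pcdh20 (0.03 to 0.04, with 701). Sox1 and Pcdh20 had mean levels of 4.36 and 4.23, under the lowest array median of 4.50, and Txk one of 4.96, while Pgk1 stood at 11.74. Matches to genes near background do not show a shared pattern of expression. None of these nearest genes is a class I gene. The distances describe the 6 arrays and carry no test.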

How the data were processed

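The authors deposited 1 table with 1 intensity on a linear scale for each of 41345 probe sets and 6 arrays. The submitters' processing notes name RMA (background correction, normalization and summary over probes), and no version or genome build is given in the sources used here. Genes were named from GEO's platform annotation: 23521 probe sets carry 1 symbol, 1814 several and 16010 none, and only the first kind was used for genes. Values were taken as log2(intensity + 1), which understates folds of dim genes. Genes entered the test where 3 or more arrays had them above that array's 25th percentile. The comparison of tumor with spleen used limma 3.58.1 (R 4.3.3; lmFit, eBayes; two-sided; group as the only term), with Benjamini-Hochberg adjustment over all genes tested, after a test of the script on simulated data. For ratios, the value of H2-K1 was subtracted from every gene on each array before the same fit. The number of arrays limits the precision.

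Deviations from the group means correlated across genes at 0.361, 0.442 and 0.71 between spleen and tumor arrays of equal number. Each is over 0.1, so a fit with that number as a block is given where it changes a call. Arrays numbered 1 and 2 also correlated across numbers (0.465 and 0.348), and what a number stands for is not said.

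The genes described and the lists were chosen with earlier results of these data known. Named genes are the 6 class I genes, the 3 nearest patterns to each, and of each list up to 3 called genes per direction by smallest p, or the 2 of smallest p. Alternatives were quantile normalization, median centring, cyclic loess, a pseudocount of 16, array weights, no filter, a filter at the 50th percentile, a trended and robust prior, averaging the probe sets of a gene, the replicate block, the arrays numbered 1 and 2 alone, and each array left out. A block for the arrays numbered 3 and a fit over all probe sets were chosen after seeing the data.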

Additional observations from a re-analysis of the deposited data

Results flagged for a closer look

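Of the class I heavy chain genes, some share their probe set with a neighbour, and such probe sets with several symbols were left out of the gene comparison. Of 6 such probe sets 2 were called in a fit over all 31574 probe sets that passed the filter, a choice made after seeing the data. The probe set of H2-T22 and H2-T9 had levels of 8.35, 8.20 and 8.94 in spleen and 10.63, 10.74 and 11.15 in tumor, a rise of 2.34 ± 0.24 (limma adjusted p = 0.00176). That of H2-Q6 and H2-Q8 had levels of 9.22, 9.28 and 9.72 in spleen and 10.36, 10.63 and 11.11 in tumor, a rise of 1.29 ± 0.24 (adjusted p = 0.0227). Which of the named genes gives the signal cannot be told apart. The classical chain H2-D1 shares its probe set with H2-Q2, at a difference of 0.29 ± 0.19 (adjusted p = 0.585). That probe set was dim, at 6.27 ± 0.13 in spleen and 6.55 ± 0.30 in tumor, where H2-K1 stood at 11.26 and 11.61. How well it reads H2-D1 was not tested, so it does not show whether H2-D1 changed. The brightest shared probe set, of H2-Q7, H2-Q8 and H2-Q9, stood at 11.71 ± 0.07 in spleen and 12.17 ± 0.07 in tumor (0.46 ± 0.14, adjusted p = 0.118).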

How the results depend on the processing

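The difference of each of the 6 class I genes stayed above 0 under the 12 alternatives and without each array. H2-Q4 and H2-T23 kept their call under the 12 alternatives (0.79 to 1.42 and 0.68 to 0.88, adjusted p up to 0.0369 and 0.0173). H2-K1 was called with cyclic loess (0.41), array weights (0.31), the replicate block (0.35) and a block for the arrays numbered 3 (0.35), H2-M3 with array weights (0.37) and both blocks (0.39), and H2-M2 with array weights (0.23). Relative to H2-K1, H2-T23 was not called with quantile normalization (0.37) or among the arrays numbered 1 and 2 (0.40), nor H2-Q4 with the mean of its probe sets (0.44). The replicate block changed no other call of the 6 genes or their ratios. Genes called numbered 1953 of all tested, and 3508 with quantile normalization, 3290 with median centring, 3182 with cyclic loess, 7098 with array weights, 5348 with the replicate block, 5468 with the block for the arrays numbered 3 and 2942 among the arrays numbered 1 and 2. Called regulators of class I numbered 3, and 5 with quantile normalization or median centring, 8 with array weights, 6 with the replicate block and 7 with the block for the arrays numbered 3. Without each array in turn the differences ran from 0.25 to 0.42 for H2-K1, 1.17 to 1.57 for H2-Q4, 0.77 to 0.82 for H2-T23, 0.14 to 0.35 for H2-M2, 0.32 to 0.46 for H2-M3 and 0.08 to 0.12 for B2m. Relative to H2-K1 they ran from 0.75 to 1.25 for H2-Q4, 0.37 to 0.53 for H2-T23, -0.18 to -0.04 for H2-M2, -0.04 to 0.13 for H2-M3 (-0.03 without spleen 3 and -0.0433 without tumor 2) and -0.31 to -0.14 for B2m. Genes called ran from 1012 (without tumor 1) to 1926, with 1148 and 1030 without spleen 1 and 2, and those of the lists from 5 to 7 for peptide supply and loading, 3 to 4 for regulators and 2 to 4 for class I-like molecules. The causes were not tested.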
